A study of Mus musculus with 46 samples.

Results

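The transcripts of 7 genes that start or restrain blood coagulation were followed in mouse ovarian follicles after an ovulatory stimulus. F3 encodes tissue factor, Tfpi and Tfpi2 encode inhibitors of the tissue factor pathway, Thbd and Procr encode thrombomodulin and the endothelial protein C receptor, and F2r and F2rl1 encode protease-activated receptors 1 and 2. The rows were taken by gene name from the deposited count and TPM tables (TPM being a transcript level per gene length and library size), and all 7 names were found among the 25147 genes of the count table. The group was selected on biology and on the measured early rise of F3, so the differences of F3 from 0 h and from 1 h are given as descriptions with no test.

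The 46 libraries were each made from a single follicle, isolated from outbred CD-1 mice. All follicles had been cultured singly in alginate for 8 days, and ovulation was triggered with human chorionic gonadotropin (hCG, 1.5 IU/ml), a ligand of the luteinizing hormone receptor. The maturation medium also held 10 ng/ml epidermal growth factor, 10 mIU/ml recombinant follicle-stimulating hormone and 10% fetal bovine serum, and the labels name no follicles kept for the same hours without hCG. Follicles were taken at 0 h (9 follicles, all in batch 2), 1 h (10 in batch 1 and 3 in batch 2), 4 h (10 in batch 1 and 3 in batch 2) and 8 h (11, all in batch 1). Within batch 1 the follicles at 1 h and 8 h are labelled as 1 plate and those at 4 h as another. The labels do not tie follicles to animals, so each p-value measures how follicles vary, whichever animals they came from. A follicle is a mixture of cells, so more RNA per cell and more cells of a type cannot be told apart.

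Library totals ran from 241442 to 5185044 counts, and the median totals at 0, 1, 4 and 8 h were 3286107, 730895, 1432395 and 1755429. The 8 granulosa cell markers were all detected at each time, Amh by 1 count at 0 h. They summed to medians of 26884, 25967, 25630 and 13518 TPM at 0, 1, 4 and 8 h. Inha made up most of these sums, with medians of 19883, 17992, 19347 and 12599 TPM. Of 7 tested, 5 fell at 4 h and 7 at 8 h over 0 h, where 54.2% and 45.1% of all genes were called. The 8 oocyte markers summed to medians of 14.8, 17.3, 13.5 and 23.1 TPM. The 6 surface epithelium markers summed to 4.38, 5.67, 11.8 and 22.5 TPM. At 8 h their largest medians were those of Krt8 (8.56 TPM) and Krt18 (8.83 TPM), while Upk3b and Muc16 had no count. Another 3332 genes were counted in batch 1 but not in any of the 6 batch 2 follicles after hCG, and held at most 0.0725% of all TPM of a follicle at later times against 16.2% to 52.2% at 0 h. The TPM of every other gene at 0 h are lowered by that share, and F2rl1 is itself among the 3332.

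Tissue factor is a membrane receptor for clotting factor VII. Its complex with activated factor VII activates factors IX and X and leads to thrombin. The tissue factor pathway inhibitor blocks that complex. Thrombin bound to thrombomodulin stops making fibrin and instead activates protein C, which is presented by its receptor Procr and shuts down further thrombin formation. Thrombin, activated protein C and the tissue factor complex also signal to cells by cleaving protease-activated receptors. In the ovary the follicle wall breaks at ovulation, and the fluid of the follicle is known to contain clotting proteins.

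The windows from 250 bases before to 50 bases after the start of transcription (RefSeq, GRCm38.p6) are shown for the 3 genes that were highest at 4 h and, for contrast, for Tfpi, which was lower after hCG. Capitals mark the AP-1 motif TGANTCA, the binding sequence of Fos and Jun dimers, searched on both strands.
F3, chr3:121723287-121723586, plus strand: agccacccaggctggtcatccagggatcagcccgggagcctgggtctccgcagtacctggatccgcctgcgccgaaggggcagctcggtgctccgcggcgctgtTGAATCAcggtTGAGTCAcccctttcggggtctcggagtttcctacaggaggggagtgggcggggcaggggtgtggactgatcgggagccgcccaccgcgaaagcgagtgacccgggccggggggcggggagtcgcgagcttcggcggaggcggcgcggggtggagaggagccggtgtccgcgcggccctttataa
Procr, chr2:155750967-155751266, plus strand: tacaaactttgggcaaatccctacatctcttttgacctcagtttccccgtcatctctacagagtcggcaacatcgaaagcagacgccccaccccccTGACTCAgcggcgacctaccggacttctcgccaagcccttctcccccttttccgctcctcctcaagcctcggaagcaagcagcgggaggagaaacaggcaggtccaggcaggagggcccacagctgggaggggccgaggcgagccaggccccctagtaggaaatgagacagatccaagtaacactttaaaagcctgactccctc
F2r, chr13:95618417-95618716, minus strand: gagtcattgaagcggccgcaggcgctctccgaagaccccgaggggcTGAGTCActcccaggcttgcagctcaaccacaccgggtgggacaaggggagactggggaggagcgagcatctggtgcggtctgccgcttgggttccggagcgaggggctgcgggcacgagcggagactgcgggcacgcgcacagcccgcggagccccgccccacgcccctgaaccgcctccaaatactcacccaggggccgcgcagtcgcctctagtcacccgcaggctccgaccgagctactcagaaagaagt
Tfpi, chr2:84476710-84477009, minus strand: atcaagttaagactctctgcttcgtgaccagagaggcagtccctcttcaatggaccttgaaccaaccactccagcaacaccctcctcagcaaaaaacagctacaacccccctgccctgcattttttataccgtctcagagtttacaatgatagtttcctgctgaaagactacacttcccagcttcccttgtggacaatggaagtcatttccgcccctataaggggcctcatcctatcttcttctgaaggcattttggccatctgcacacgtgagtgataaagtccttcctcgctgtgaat

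The F3 window held 2 AP-1 motifs, at -146 to -140 and -135 to -129, where -1 is the base before the start. It also held 3 Sp1 motifs (GGGCGG, searched on both strands). The Procr window held 1 AP-1 motif at -154 to -148 and the F2r window 1 at -204 to -198, and the Tfpi window held none. Of the 3 Tfpi2 windows 1 held an AP-1 motif, at -77 to -71. Of 32851 such windows in the genome, 7.81% held TGANTCA and 35.7% held the Sp1 motif. No window of the 5 genes matched (F3, Tfpi, Tfpi2, Procr and F2r) held the cyclic AMP response element TGACGTCA, which was in 1.79% of windows. The motifs were chosen after these sequences had been read, and a match is a description of letters, not of binding.

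F3 (ENSMUSG00000028128.13, chr3:121723537-121735048, plus strand, GRCm38) was the highest of these genes by median TPM at 1, 4 and 8 h and ranked 4 of 7 at 0 h. It held 0, 0.586 and 4.61 TPM at 0 h (lowest, median and highest of 9 follicles), and 2 of those 9 follicles had no F3 count. At 1 h the 10 follicles of batch 1 held 124, 213 and 650 TPM, and the 3 follicles of batch 2 held 538, 426 and 538 TPM. Every follicle at 1 h was above every follicle at 0 h.

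At 4 h F3 held 510, 1550 and 2825 TPM in batch 1, and 926, 273 and 488 TPM in the 3 follicles of batch 2. At 8 h the 11 follicles held 17.3, 113 and 166 TPM, so that the highest follicle at 8 h was below the lowest at 4 h, and the lowest at 8 h was still above the highest at 0 h. On the log2 scale the fitted difference was 7.57 ± 0.57 for 1 h over 0 h, 9.34 ± 0.62 for 4 h over 0 h and 5.65 ± 0.62 for 8 h over 0 h (SE, edgeR fit with a batch term). The authors' deposited table gives signed folds over 0 h of 210 at 1 h, 742 at 4 h and 58.4 at 8 h for F3. The 0 h follicle with the most F3, replicate 1 with 21 of the 46 counts, also had the highest sums of leukocyte markers (537 TPM, median of the 9 follicles 15.8) and of platelet markers (40.9 TPM, median 1.21). Most of each sum was 1 gene, Itgam at 507 TPM and Pf4 at 38.7 TPM, against medians of 0 for both at 0 h. Of the other markers in these lists, Lyz2 reached 128 TPM in its highest follicle at 0 h and each of the rest at most 7.15 TPM. Without replicate 1 the fitted difference of 8 h over 0 h was 6.49. The 6 smooth muscle markers had summed medians of 75.7, 877, 555 and 206 TPM at 0, 1, 4 and 8 h. Acta2 made up most of these sums, with medians of 73.9, 838, 516 and 201 TPM. Myh11, Cnn1 and Des had at most 24 counts each at any time and were not tested. Of the 3 tested 2 rose at 1 h and all 3 at 4 h over 0 h, where 34.6% and 54.2% of all genes were called. The part of these markers in the level of F3 was not tested.

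**Figure D1:**
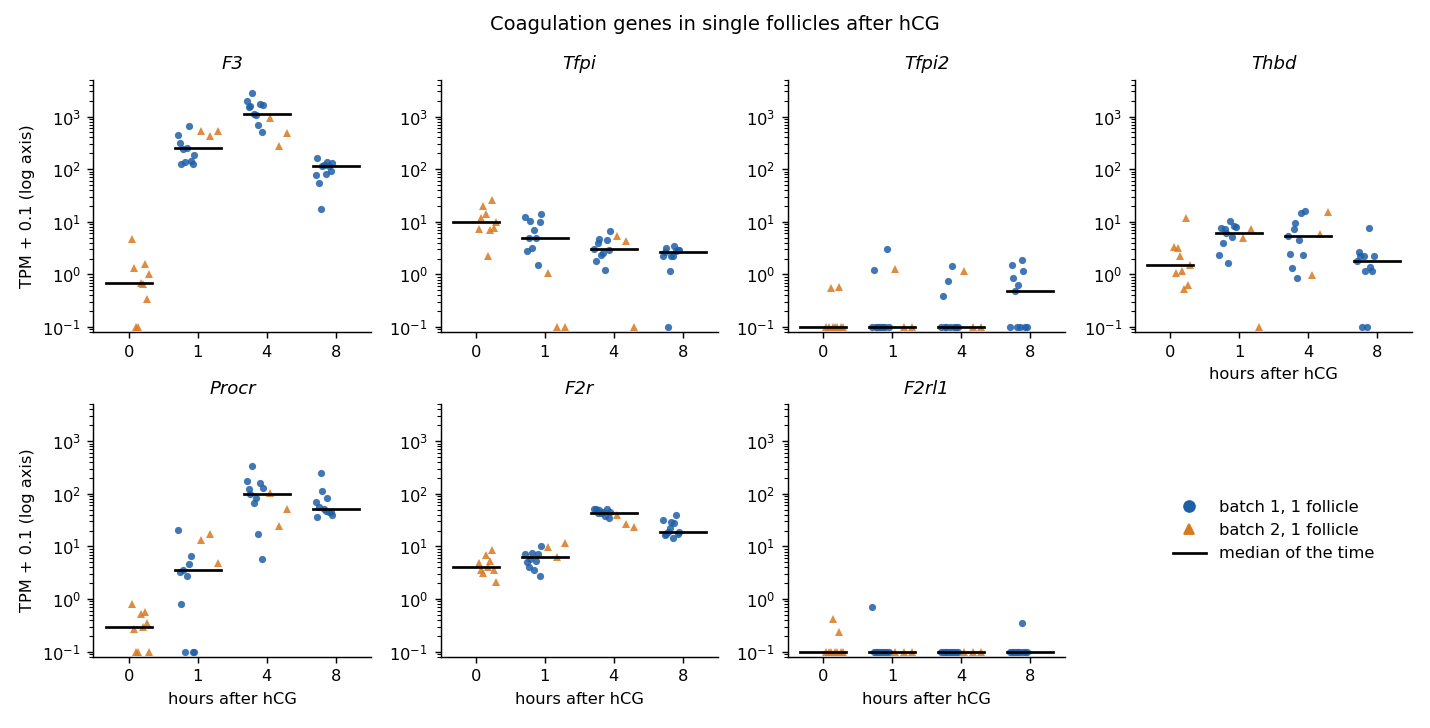
TPM + 0.1 (log axis) of the 7 genes in each of the 46 follicles by hours after hCG. Circles are follicles of batch 1, triangles follicles of batch 2 and bars the median of a time. F3 reaches at most 4.61 TPM at 0 h, at least 124 TPM in every follicle at 1 h and 4 h, and lies between 17.3 and 166 TPM at 8 h, while Procr and F2r are highest at 4 h and Tfpi is highest at 0 h.

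The fall of F3 between 4 h and 8 h was not used to choose it and was tested. F3 fell by 3.69 on the log2 scale (SE 0.39, adjusted p = 9.5e-11, edgeR quasi-likelihood test with Benjamini-Hochberg adjustment over 8629 genes), and in batch 1 alone the difference was -3.89 (adjusted p = 9.6e-11). Of all genes tested, 41.3% were called in this step at an adjusted p under 0.05. In batch 1 the plate and the time cannot be told apart here, and with a term for the 3 library sets (the plates of batch 1 and the set of batch 2) the difference was -1.86 (adjusted p = 0.0714).

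The step between 1 h and 4 h is the one both batches hold, and its fitted size for F3 is given by batch as a description, since the 1 h values chose F3. F3 at 4 h over 1 h was 0.22 ± 0.99 (log2, SE) in batch 2 alone and 2.29 ± 0.34 in batch 1 alone. The difference between the batches in this step, batch 2 minus batch 1, was -2.11 ± 0.66. Of 5820 genes tested for that difference, 5.09% were called, and none of Procr, F2r and Thbd was by edgeR. F2r was the nearest of them at -1.15 ± 0.37, with an adjusted p of 0.0689 by edgeR (unadjusted p = 0.00449) and of 0.0367 by DESeq2. In batch 2 the follicles at 4 h and at 1 h overlapped in F3, and in batch 1 they overlapped in part.

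Tfpi (ENSMUSG00000027082.15, chr2:84432855-84476775, minus strand), the main inhibitor of the tissue factor complex, was the highest of the 7 genes before hCG and fell afterwards. It held 2.17, 9.79 and 25.9 TPM at 0 h (lowest, median and highest of 9 follicles). It held 1.44, 5.90 and 13.9 TPM at 1 h in batch 1 and 0.968, 0 and 0 TPM in batch 2. At 4 h it held 1.11, 2.92 and 6.50 TPM in batch 1 and 5.30, 4.28 and 0 TPM in batch 2, and at 8 h it held 0, 2.60 and 3.33 TPM.

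The ranges of Tfpi at each later time overlapped with 0 h, and the follicle with the highest level at 0 h, replicate 7, lay above all others. Tfpi fell, with a log2 difference from 0 h of -1.94 ± 0.58 at 1 h (SE, adjusted p = 0.00758), -2.88 ± 0.52 at 4 h (adjusted p = 8.2e-06) and -3.52 ± 0.64 at 8 h (adjusted p = 1.1e-05, edgeR throughout). In batch 2 alone the difference was -4.82 at 1 h over 0 h and -2.09 at 4 h over 0 h, both called. Each library after hCG held at most 13 Tfpi counts, so a single follicle is a coarse measure, and without 1 h replicate 11 the difference at 1 h was -1.56 (adjusted p = 0.0525).

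Among the later times Tfpi was called in 2 of 3 comparisons. Tfpi at 8 h fell by 1.58 relative to 1 h (SE 0.43, adjusted p = 0.00208), and at 8 h over 4 h the value was -0.64 ± 0.43 (adjusted p = 0.235). At 4 h over 1 h it was -0.94 ± 0.41 with an adjusted p of 0.0468, which was lost when any of 28 of the 46 follicles was left out, and in batch 2 alone the sign was the opposite (2.73 ± 1.54, adjusted p = 0.287). The authors' deposited table gives signed folds of -2.67, -5.26 and -7.34 for Tfpi at 1, 4 and 8 h over 0 h.

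Tfpi2 (ENSMUSG00000029664.10, chr6:3962595-3988919, minus strand), a related inhibitor that acts mainly on plasmin and matrix-bound proteases, was near the limit of detection. It had 3 counts in 2 of 9 follicles at 0 h, 3 counts in 3 of 13 at 1 h, 8 counts in 4 of 13 at 4 h and 14 counts in 6 of 11 at 8 h. Over all follicles of a time this was 0.736 CPM (counts scaled to library size) at 8 h and 0.101 at 0 h. The exact 95% binomial intervals, which cover counting error only, were 0.403 to 1.24 and 0.0207 to 0.294. At 0 h, 22.6% to 46.2% of the counts of a library lay in the 3332 genes set apart above, which lowers that CPM. Tfpi2 did not pass the filter on low counts and was not tested.

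Thbd (ENSMUSG00000074743.4, chr2:148404466-148408188, minus strand), the thrombin receptor that turns thrombin towards protein C, was low at all times, with a wide spread between follicles. It held 0.417, 1.42 and 11.6 TPM at 0 h (lowest, median and highest of 9 follicles). It held 1.53, 6.51 and 10.4 TPM at 1 h in batch 1 and 4.76, 7.27 and 0 TPM in batch 2. At 4 h it held 0.746, 4.89 and 16.0 TPM in batch 1 and 0.869, 5.79 and 15 TPM in batch 2, and at 8 h it held 0, 1.68 and 7.45 TPM.

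Thbd did not differ detectably from 0 h at 1 h (0.70 ± 0.70, adjusted p = 0.454), 4 h (0.57 ± 0.64, adjusted p = 0.462) or 8 h (-0.95 ± 0.79, adjusted p = 0.333, log2 with SE, edgeR). It fell at 8 h relative to 1 h by 1.64 (SE 0.55, adjusted p = 0.0117) and relative to 4 h by 1.52 (SE 0.53, adjusted p = 0.0177). The fall from 4 h was -2.37 with an adjusted p of 0.176 once the 3 library sets had a term. Without 0 h replicate 7, which held 119 of the 223 counts of that time, the difference of 4 h over 0 h was 1.42 and still not called.

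At 0, 1, 4 and 8 h the follicle with the most Thbd was also high in markers of theca and stroma, the cells around the follicle. At 0 h and 1 h some follicles high in these markers were low in Thbd. At 4 h the follicles with the most Thbd were replicates 8, 10 and 13 with 14.5, 16.0 and 15 TPM, and their sums of the 10 theca and stroma markers, 1068, 1041 and 648 TPM, were the highest of that time, whose median was 107 TPM. At 8 h replicate 8 was highest in both, with 7.45 TPM of Thbd and a marker sum of 1341 TPM, and replicates 4 and 7, with no Thbd count, had the lowest sums, 20.2 and 21.6 TPM. At 0 h replicate 7 was highest in Thbd, in the theca and stroma sum (777 TPM) and in the endothelial sum (39.5 TPM). Replicate 8 of that time, with a theca and stroma sum of 595 TPM, had 0.534 TPM of Thbd. At 1 h replicate 7 had the most Thbd (10.4 TPM) and a sum of 1136 TPM. Replicate 1, with the highest sum of 1370 TPM, had 2.27 TPM of Thbd, and replicate 13, with 730 TPM, had no Thbd count. The marker sum ran from 20.2 to 1341 TPM at 8 h (median 105) and from 77.2 to 1370 TPM at 1 h (median 578). At 8 h the theca markers Cyp17a1 and Insl3 reached at most 3.51 and 12.8 TPM, while the collagen gene Col3a1 reached 966 TPM. Of the 9 markers tested 6 fell at 8 h relative to 1 h, where 49.1% of all genes were called. All 10 markers were detected at each time, and their part in the fall of Thbd was not tested.

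Procr (ENSMUSG00000027611.12, chr2:155751117-155755471, plus strand), the receptor that presents protein C for activation, was nearly absent at 0 h and rose both at 1 h and between 1 h and 4 h. It held 0, 0.195 and 0.701 TPM at 0 h (lowest, median and highest), from 10 counts in 9 follicles. It held 0, 2.90 and 20.1 TPM at 1 h in batch 1 and 13.3, 16.9 and 4.74 TPM in batch 2. At 4 h it held 5.74, 109 and 333 TPM in batch 1 and 102, 24.5 and 51.0 TPM in batch 2, and at 8 h it held 36.4, 50.9 and 246 TPM.

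All follicles at 4 h and 8 h were above all follicles at 0 h, while 3 follicles at 1 h had no Procr count. Procr rose by 3.65 at 1 h over 0 h on the log2 scale (SE 0.93, adjusted p = 0.00214), by 7.52 at 4 h (SE 0.77, adjusted p = 1.5e-11) and by 6.97 at 8 h (SE 0.86, adjusted p = 4.8e-09, edgeR). In batch 2 alone it rose by 4.78 at 1 h and by 7.14 at 4 h. The difference of 4 h over 1 h was 3.87 ± 0.48 (adjusted p = 2.2e-09) and was 2.36 in batch 2 alone and 4.47 in batch 1 alone, both called, but 2.32 with an adjusted p of 0.054 with a term for the 3 library sets. The last step, 8 h over 4 h, was -0.54 ± 0.38 (adjusted p = 0.261), and the 8 h level stayed 3.33 above 1 h (SE 0.51, adjusted p = 2.9e-07). The 10 endothelial markers, all detected at each time, had summed medians of 8.31, 30.0, 10.5 and 9.08 TPM at 0, 1, 4 and 8 h, and their part in the level of Procr was not tested. The authors' deposited table gives folds over 0 h of 16.6, 259 and 182 for Procr at 1, 4 and 8 h.

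F2r (ENSMUSG00000048376.6, chr13:95601803-95618487, minus strand), the main thrombin receptor on many cell types, rose late. It held 2.05, 3.88 and 8.41 TPM at 0 h (lowest, median and highest). It held 2.65, 5.40 and 10.2 TPM at 1 h in batch 1 and 9.56, 6.08 and 11.4 TPM in batch 2, a range that overlapped with 0 h. At 4 h it held 34.0, 44.4 and 52.3 TPM in batch 1 and 38.6, 26.7 and 23.3 TPM in batch 2, and at 8 h it held 14.1, 19.1 and 39.6 TPM.

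Every follicle at 4 h and 8 h was above every follicle at 0 h and 1 h for F2r. Its spread at 4 h in batch 1 was small, with a coefficient of variation of 13.6% in TPM over 10 follicles, against 45.5% for F3 in the same follicles. In the 3 follicles of batch 2 at 4 h it was 27.2% (F3 59.1%), and at 8 h it was 34.6% (F3 41.8%). At 1 h over 0 h the fitted value was -0.01 ± 0.31 (log2, SE, adjusted p = 0.98), and in batch 2 alone it was 0.57 ± 0.37 (adjusted p = 0.287). F2r rose by 2.53 at 4 h over 0 h (SE 0.26, adjusted p = 2.6e-11), by 2.55 at 4 h over 1 h (SE 0.20, adjusted p = 7.3e-15) and by 1.58 at 8 h over 0 h (SE 0.31, adjusted p = 3.9e-05, edgeR). It fell by 0.95 at 8 h relative to 4 h (SE 0.18, adjusted p = 3.6e-05), but with a term for the 3 library sets that value was 0.08 (adjusted p = 0.937). The difference of 4 h over 1 h was 1.73 in batch 2 alone and 2.86 in batch 1 alone, both called.

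F2rl1 (ENSMUSG00000021678.9, chr13:95511732-95525227, minus strand), the receptor cleaved by the tissue factor complex and by trypsin-like proteases, had 4 counts in all 46 follicles together. The counts by time (0, 1, 4 and 8 h) were 2, 1, 0 and 1, each in a different follicle. At 4 h, 0 of 22620850 counts allows up to 0.133 CPM by the limit of 3 counts, and the exact 95% binomial interval ends at 0.163 CPM. It was not tested, and no difference was detectable at this depth.

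Across the comparisons, 4 of the 6 genes other than F3 passed the filter on low counts. Of these 4, 2 were called at 1 h over 0 h, where 34.6% of all 8629 genes were called. At 4 h over 0 h 3 were called, against 54.2% of all genes, and at 8 h over 0 h 3, against 45.1%. At 4 h over 1 h 3 were called, against 54.8%. At 8 h over 4 h 2 were called, against 41.3%, and at 8 h over 1 h all 4, against 49.1%. In the joint test of the 4 times all 4 were called, with adjusted p-values of 6.2e-06 for Tfpi, 2.5e-13 for Procr, 4.2e-16 for F2r and 0.0205 for Thbd (edgeR), where 79.8% of all genes were called. With 4 genes each of these counts is a coarse share. The median log2 difference over all genes was -0.19, -0.12 and -0.15 at 1, 4 and 8 h over 0 h.

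**Figure D2:**
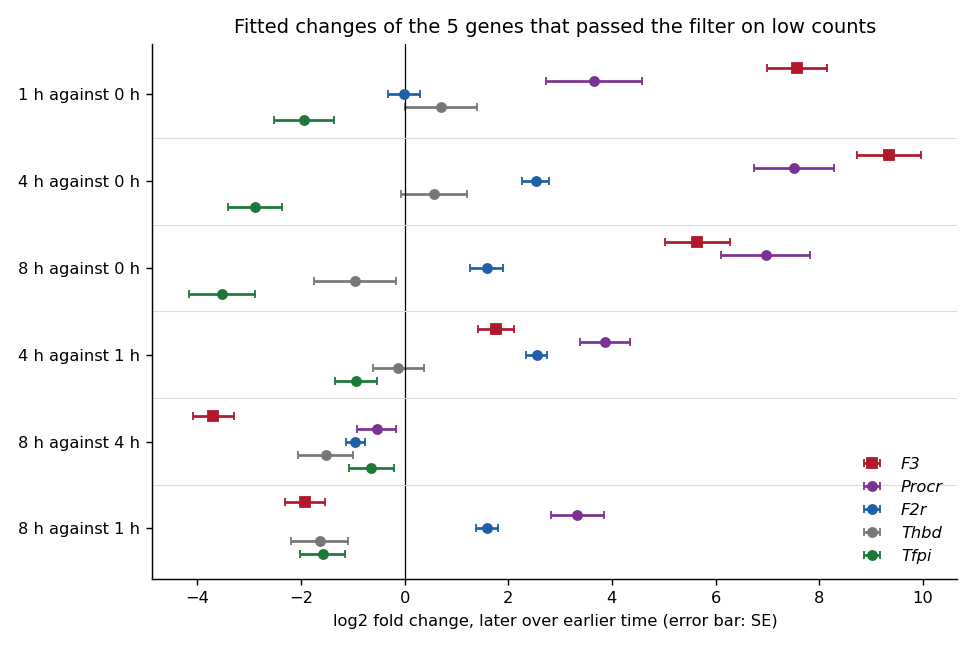
Fitted log2 fold changes of the later over the earlier time for the 5 genes that passed the filter, with SE as error bars and F3 as squares. F3 and Procr lie furthest to the right in the comparisons with 0 h, Tfpi lies left of 0 throughout, and in 8 h against 4 h F3 stands at -3.69 while the other 4 genes lie between -1.52 and -0.54.

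The order of the genes by median level changed over the course. At 4 h in batch 1 the medians ran from F3 (1550 TPM) through Procr (109), F2r (44.4) and Thbd (4.89) to Tfpi (2.92), and the ranges of F3 and Procr, and of F2r and Thbd, did not overlap. At 0 h they ran from Tfpi (9.79 TPM) through F2r (3.88), Thbd (1.42) and F3 (0.586) to Procr (0.195), with overlapping ranges between neighbours.

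The ratio of F3 to another gene was taken within each follicle. The median log2 ratio of F3 to Tfpi, in TPM + 0.1, was -3.41, 5.42, 8.73 and 5.38 at 0, 1, 4 and 8 h. F3 was above Tfpi in 0 of 9 follicles at 0 h and in every follicle after hCG. Against Procr the medians were 1.14, 6.63, 3.65 and 0.75, so that the excess of F3 over Procr was largest at 1 h and nearly gone at 8 h, when F3 was above Procr in 9 of 11 follicles. Against F2r they were -2.54, 5.55, 4.71 and 2.32, and against Thbd -0.77, 5.38, 7.74 and 5.97. With a pseudocount of 1 the medians at 0 h were -2.50 to Tfpi and 0.37 to Procr. Since F3 was chosen for its rise these ratios are descriptions.

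**Figure D3:**
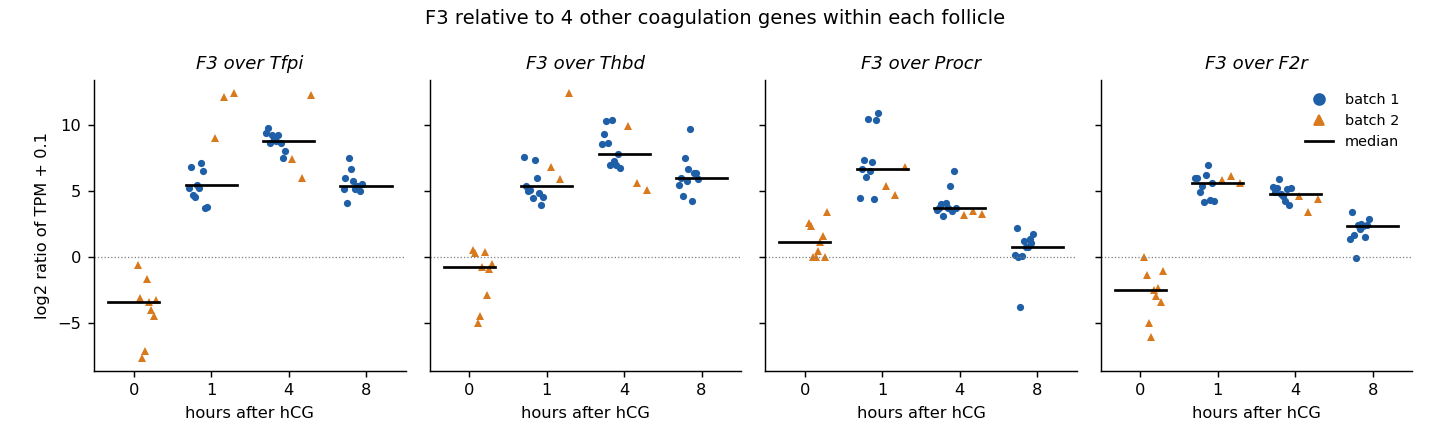
Log2 ratio of F3 to Tfpi, Thbd, Procr and F2r (TPM + 0.1) in each follicle by hours after hCG, with circles for batch 1, triangles for batch 2, bars for medians and a dotted line at equal levels. All follicles at 1 h and 4 h lie above the line in the 4 panels, and at 8 h the ratio to Procr has a median of 0.75 with 1 follicle at -3.82.

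Among follicles of 1 time, F3 and Procr varied together at 4 h. In the 10 follicles of batch 1 at 4 h the log2 CPM of F3 and Procr had a Pearson correlation of 0.96 (permutation p = 1.0e-05, the smallest that 100000 permutations can give, adjusted p = 1.0e-04 over 10 relations) and a Spearman correlation of 0.93 (permutation adjusted p = 0.0035). Without the 2 follicles farthest from the median of F3 the Pearson correlation was 0.86. Procr ranked 2 of 8608 genes in correlation with F3 in these follicles. The 3 follicles of batch 2 fell in the same order, with 926, 488 and 273 TPM of F3 beside 102, 51.0 and 24.5 TPM of Procr. F3 and F2r in the 10 follicles had a correlation of 0.57 (permutation adjusted p = 0.276), and that of F3 with the library total was -0.25 (permutation adjusted p = 0.633). These relations were chosen after the values had been seen.

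At 8 h no such relation was found. The Pearson correlation over 11 follicles was -0.66 (permutation p = 0.0466, adjusted p = 0.233), the Spearman correlation was -0.45 (permutation adjusted p = 0.44), and without the 2 follicles farthest from the median of F3 the Pearson value was -0.06, so the -0.66 rested on those 2 follicles. Replicate 4 had the lowest F3 (17.3 TPM) and the highest Procr (246 TPM) of that time. The same follicle had no count of Tfpi or Thbd, and its F2r of 19.1 TPM was the median of its time. The difference between the correlations at 4 h and at 8 h was not tested.

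**Figure D4:**
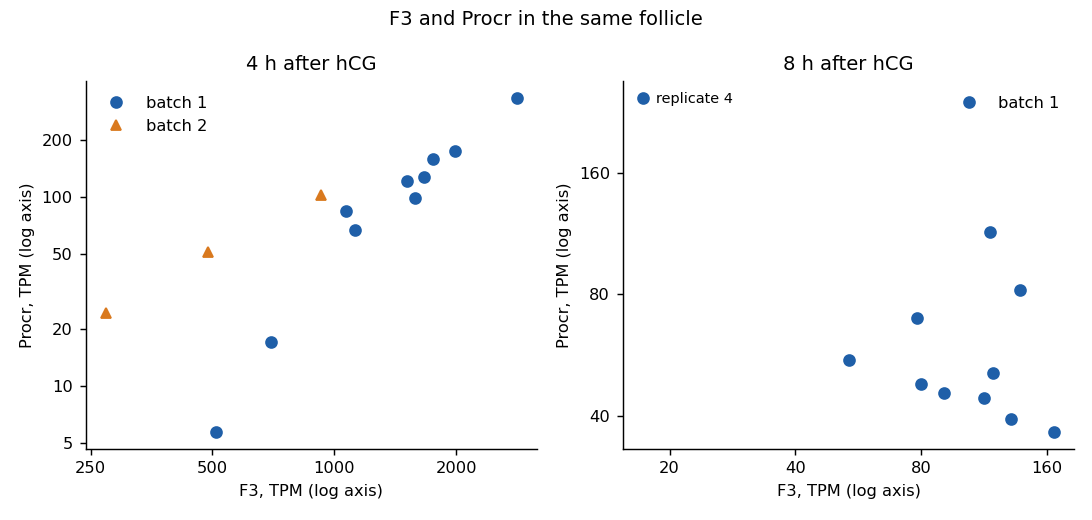
Procr against F3 in TPM (both axes log) in the follicles at 4 h (left, batch 1 as circles and batch 2 as triangles) and at 8 h (right, batch 1). The batch 1 points at 4 h climb from 5.74 TPM of Procr at 510 TPM of F3 to 333 TPM at 2825 TPM, and at 8 h replicate 4 stands alone at 17.3 TPM of F3 and 246 TPM of Procr.

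The genes whose log2 CPM over all 46 follicles were most like each member were taken by rank of Pearson correlation among 8609 genes, which share the time course and the libraries. For F3 they were Cxcl1, a neutrophil-attracting chemokine (r = 0.96), Errfi1, a feedback inhibitor of the epidermal growth factor receptor (0.95), Eif4e, the cap-binding translation factor (0.94), Fdx1, the electron carrier of steroid synthesis (0.93), and Osgin2 (0.93). Median Cxcl1 was 0.708, 906, 4185 and 63.4 TPM at 0, 1, 4 and 8 h, the same up-and-down course as F3. For Procr they were Tagln2 (0.93) and Hmga1, a chromatin protein (0.92), and for F2r Btc, the growth factor betacellulin (0.94), and Cobll1 (0.93). Procr and F2r had a correlation of 0.83 with each other, at rank 94 for F2r. For Tfpi they were Rimklb (0.82) and Fundc2 (0.80), and for Thbd Col6a3, a collagen chain of connective tissue (0.79), and Enpep, an aminopeptidase (0.74).

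Of the wider pathway, the clotting proteins that tissue factor acts on were scarcely transcribed. Of 17 clotting factor genes only Vwf, von Willebrand factor, passed the filter, and it was called in none of the 6 comparisons of 2 times (0.42 ± 0.51 at 4 h over 0 h, adjusted p = 0.5, edgeR). F7, the partner of tissue factor, had 1 count in the 46 follicles, and prothrombin (F2) had 1. F10 had 15, 4, 11 and 29 counts at 0, 1, 4 and 8 h, and F8 had medians of 1.19, 0.68, 2.09 and 0.26 TPM. Proc, the gene of protein C itself, had no count in any follicle.

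Genes of anticoagulants and related proteins changed in both directions. Their roles differ, so these are directions of transcripts and not of anticoagulant activity. Of 12 such genes 6 were tested. At 8 h over 0 h 2 rose, 2 fell and 2 did not pass the test, where 45.1% of all genes were called. The median log2 difference was -0.16 beside -0.15 over all genes. Hs3st1, the sulfotransferase that gives heparan sulfate its antithrombin-binding site, rose by 2.68 at 1 h, 6.04 at 4 h and 5.35 at 8 h over 0 h (log2, SE 0.37, 0.41 and 0.44, adjusted p = 1.7e-07, 3.2e-17 and 3.5e-14, edgeR). Its medians were 6.18, 49.8, 629 and 449 TPM at 0, 1, 4 and 8 h, with no overlap between the follicles at 0 h and those at any later time. Anxa5, which covers phosphatidylserine on the cell surface, rose by 2.62 at 4 h and 3.01 at 8 h over 0 h (adjusted p = 1.7e-11 and 2.5e-11). Gas6, a vitamin K-dependent ligand related to protein S, fell by 2.17 at 4 h over 0 h and fell by 5.28 at 8 h (adjusted p = 7.3e-06 and 1.6e-12). Serpina5, the protein C inhibitor, fell by 2.59 and fell by 4.29 at those times (adjusted p = 7.5e-04 and 2.0e-05).

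The most abundant anticoagulant transcript at 0, 1, 4 and 8 h was Serpine2, protease nexin 1, an inhibitor of thrombin and plasminogen activators, with medians of 2755, 2498, 2746 and 2029 TPM. It was not called against 0 h at any time, and it fell by 0.62 at 8 h relative to 4 h (SE 0.22, adjusted p = 0.0233) and by 0.53 at 8 h relative to 1 h (SE 0.22, adjusted p = 0.0455, edgeR). Pros1, protein S, the cofactor of activated protein C, had medians of 20.3, 26.7, 30.8 and 48.4 TPM and was called once, at 8 h over 1 h (0.59 ± 0.24, adjusted p = 0.036, edgeR). Both lie outside the rule for named genes and are given because they complete the list of 6.

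**Figure D5:**
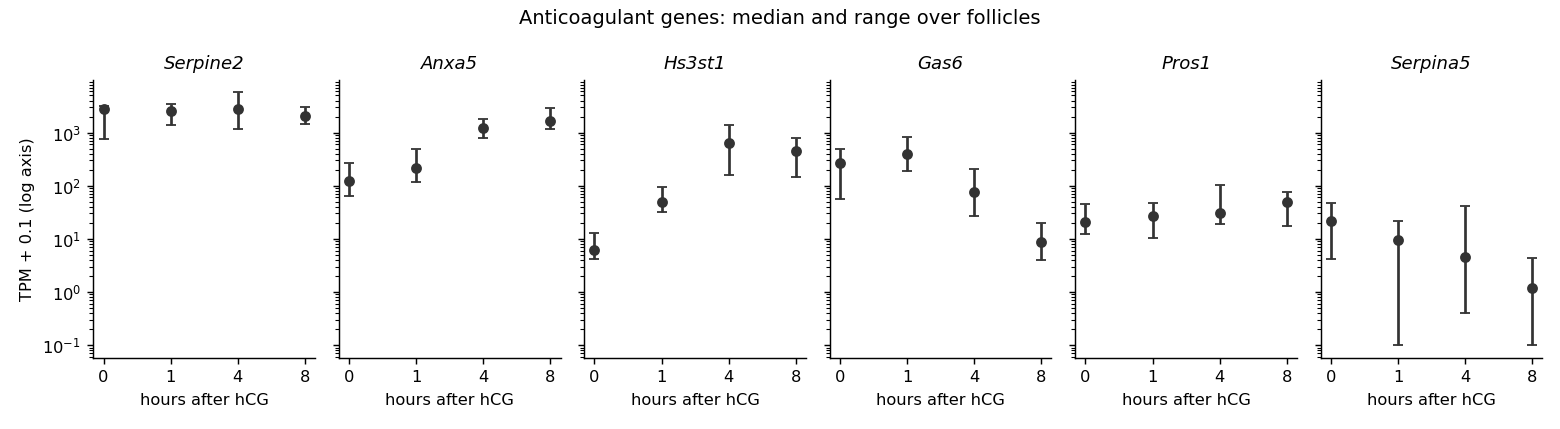
Median TPM + 0.1 (points, log axis) of the 6 tested genes of anticoagulants and related proteins, by hours after hCG. Bars run from the lowest to the highest follicle (9, 13, 13 and 11 follicles at 0, 1, 4 and 8 h). Hs3st1 and Anxa5 are higher and Gas6 and Serpina5 lower at 8 h than at 0 h, while the medians of Serpine2 lie between 2029 and 2755 TPM.

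The partners of the protease-activated receptors moved in both directions. Of 8 genes 5 were tested. At 4 h over 0 h 1 fell and none rose, where 54.2% of all genes were called. At 8 h over 1 h 2 rose and 1 fell, where 49.1% of all genes were called. The gene that fell at 4 h over 0 h was Gna11, a G protein alpha subunit of the Gq family (-0.51 ± 0.18, adjusted p = 0.0162, edgeR). Gnaq, its relative, fell by 1.26 at 8 h relative to 4 h (SE 0.15, adjusted p = 5.5e-09), and Arrb1, beta-arrestin 1, rose by 1.38 in the same step (SE 0.28, adjusted p = 8.2e-05). The other thrombin receptors F2rl2 and F2rl3 did not pass the filter, with at most 6 counts at any time, which leaves F2r as the 1 protease-activated receptor gene tested.

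Of 11 genes for surface exposure and processing of clotting proteins 10 were tested. At 4 h over 0 h 3 rose, 2 fell and 5 did not pass, where 54.2% of all genes were called. The median log2 difference was -0.03 beside -0.12 over all genes. Anxa2, which gathers plasminogen on cell surfaces, rose by 1.98 (SE 0.25, adjusted p = 3.7e-09), and Furin, a convertase of secreted proteins, rose by 1.27 (SE 0.26, adjusted p = 4.4e-05, edgeR). Vkorc1, the vitamin K reductase, fell by 1.58 (SE 0.30, adjusted p = 1.4e-05), and Lman1, which carries factors V and VIII out of the endoplasmic reticulum, fell by 1.27 (SE 0.18, adjusted p = 5.0e-08). Furin rose again by 0.99 at 8 h relative to 4 h (adjusted p = 6.7e-06).

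The transcription factors known to act at the F3 or Thbd promoter were mostly higher at 1 h than at 0 h, and mostly lower at 4 h than at 1 h. Of 9 genes 8 were tested, and at 1 h over 0 h 6 rose and 1 fell, where 34.6% of all genes were called. The median log2 difference was 2.30 beside -0.19 over all genes. Egr1 rose by 3.91 (SE 0.40, adjusted p = 5.6e-11) and Klf4 by 4.41 (SE 0.74, adjusted p = 7.2e-06), and Sp1 fell by 1.47 (SE 0.40, adjusted p = 0.00337, edgeR). At 4 h over 0 h 3 rose and 3 fell, where 54.2% of all genes were called. Egr1 was then still 2.80 above 0 h (SE 0.41, adjusted p = 1.3e-07). At 4 h over 1 h 6 fell and 1 rose, where 54.8% of all genes were called. Jun fell by 3.82 (SE 0.26, adjusted p = 3.4e-17) and Fos fell by 3.45 (SE 0.33, adjusted p = 1.3e-12). The one that rose was Fosl1, an AP-1 subunit, by 3.87 (SE 0.43, adjusted p = 1.5e-10). Fosl1 then fell by 1.93 at 8 h relative to 4 h (SE 0.31, adjusted p = 1.6e-06), and its medians were 0, 0, 16.2 and 4.11 TPM at 0, 1, 4 and 8 h. Klf2, which is known to drive Thbd in endothelium, had 13, 9, 11 and 12 counts at 0, 1, 4 and 8 h and was not tested.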

How the data were processed

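Single-follicle libraries were made with Smart-Seq2 and Nextera XT, per the labels' protocols, and are not stranded, and none of the 7 genes overlaps another gene in GENCODE M21. The submitters' processing notes name HISAT2, Partek, DESeq2 and the GRCm38 build, without versions. The deposited count table holds whole-number counts that the authors adjusted between batches with ComBat-seq, per its name, with settings not given in the sources used here. The deposited TPM were computed by the authors from those counts, per the table's name. A further table deposited by the authors sets each later time against 0 h and gives p-values and a signed fold score for 19925 genes, per the file headers. Because their names fit no described follicle, 10 columns of the counts, and the same number of the TPM, were left out. No pair of libraries held identical values.

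Follicles were grouped by hour and batch as labelled, and 5 of the 9 descriptions at 0 h end in "_ds", whose meaning is not given. Counts of all 46 follicles entered a quasi-likelihood F test of edgeR 4.0.16 (R 4.3.3) with terms for time and batch, after filterByExpr and TMM scaling. Benjamini-Hochberg adjustment ran over the 8629 genes tested, a gene was called under 0.05, and the biological coefficient of variation was 34%. The SE is the log2 difference divided by the square root of F. With the batch term, differences from 0 h rest mainly on batch 2 at 1 h and 4 h and are sums of within-batch differences at 8 h. The fit was tested on simulated counts with the same spread for all genes and no difference between batches, which leaves batch effects untested. Log2 CPM used a prior count of 2, and ratios a pseudocount of 0.1 TPM.

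Members, lists and tests were chosen with earlier results of these data known. Named from each list were at most 2 called rises and 2 called falls per comparison, by size, and genes named for low counts or to complete a list were chosen after their values were seen. Alternatives were RLE factors, no filter, no batch term, 3 library sets as a term, a replicate block, each batch alone, no "_ds" libraries, no batch-restricted genes, thinning to 241442 counts, DESeq2 1.42.0, limma 3.58.1 on log2(TPM + 1) and log2(TPM + 0.1) for genes of mean TPM from 1 up, or for all genes, and leaving out each follicle. Leaving out follicles other than the 6 of batch 2 after hCG was added after the data were seen.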

Additional observations from a re-analysis of the deposited data

How the results depend on the processing

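Of the 4 genes other than F3 that were tested, the number called at 1 h over 0 h was 2, and was 0 with libraries thinned to the smallest total and 1 to 2 with single follicles left out. At 4 h over 1 h it was 3, and 3 also with no batch term and with DESeq2. It was 2 to 3 with single follicles left out, 2 in most other alternatives and 1 with a term for the 3 library sets. At 8 h over 4 h it was 2, against 1 with that term and 1 after thinning. After thinning it was 2 at 8 h over 1 h (4 in the main analysis) and 2 in the joint test (4), and only 2 of these genes then passed the filter. The difference between batches in 4 h over 1 h was fitted for 4 genes, F3 among them in place of Tfpi, and since the 1 h values chose F3 its calls support nothing. The number called was 0 of 4 by edgeR, 1 after thinning (F3), 2 with DESeq2 (F3 and F2r), and 0 to 2 with single follicles left out (2 without 4 h replicate 11). With the term for the 3 library sets Tfpi at 8 h over 4 h was -4.48 (adjusted p = 0.0127). The number of all genes called at 1 h over 0 h ranged from 355 to 4212 over the alternatives, where the main number was 2985. The cause of these changes was not tested, beyond the fewer genes that thinning leaves.

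Over 62 pairs of follicles with the same replicate number the correlation of deviations ran from -0.20 to 0.25. Its median was -0.00, the same as for other pairs, and 10 were over 0.1. Of 46 follicles 7 correlated best with their own number. Whether the numbers pair follicles was not tested. With the replicate block 1 of the 4 genes was called at 1 h over 0 h and 1, F3, in the difference between batches. Tfpi was then -1.66 at 1 h (adjusted p = 0.508), -2.56 at 4 h (0.175) and -3.26 at 8 h (0.139) over 0 h.

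Signs turned only where a value was not called, apart from Tfpi at 4 h over 1 h (2.67 with 3 library sets, 2.73 in batch 2 alone) and F2r at 8 h over 4 h (0.08 with 3 library sets). F2r at 1 h over 0 h was 0.00 with RLE factors, 0.06 with no filter, 0.15 with no batch term, 0.52 with 3 library sets, 0.74 with the replicate block, 0.57 in batch 2 alone, 0.13 without "_ds" libraries, 0.06 without the batch-restricted genes, 0.26 after thinning, and 0.42, 0.52 and 0.42 with limma at pseudocounts of 1, 0.1 and 1 with no filter. It ran from -0.18 to 0.18 with single follicles left out. Thbd with the replicate block was -0.33 at 1 h and -0.65 at 4 h over 0 h, and -0.17 to 1.42 at 4 h over 0 h with single follicles left out. Thbd at 4 h over 1 h was 0.09 with no filter, 0.62 with 3 library sets, 0.68 in batch 2 alone, 0.03 with DESeq2, 0.03, 0.14 and 0.03 with limma, and -0.34 to 0.04 with single follicles left out, and its difference between batches ran from -0.15 to 1.46. Procr at 8 h over 4 h was 1.43 with 3 library sets and 0.12 with limma at a pseudocount of 0.1.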
